A study of Mus musculus with 16 samples.

Results

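The glycolysis and hypoxia genes are 38 mouse genes chosen by name for their known roles, with earlier results of these data known but with no measured value in the rule. By role they are 2 glucose transporters, 14 enzymes of glycolysis, 2 enzymes that set the level of the phosphofructokinase activator fructose 2,6-bisphosphate, 3 genes for the fate of pyruvate and lactate, the glycerol phosphate shuttle enzyme Gpd1, 3 genes of the oxygen-sensing HIF pathway and 13 hypoxia-responsive genes. All 38 symbols were found among the 24421 genes of the tables that hold tumour organoids and among the 51912 entries of the table of normal organoids.

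Glycolysis splits glucose into pyruvate in the cytosol, and lactate dehydrogenase and the monocarboxylate transporters carry pyruvate on to lactate and out of the cell. When oxygen is short, the prolyl hydroxylases of the Egln family no longer mark HIF alpha subunits for destruction, and HIF then binds short ACGTG or GCGTG motifs near target genes. Those targets include glucose transporters, most glycolytic enzymes, the pyruvate dehydrogenase kinase Pdk1, the angiogenic factor Vegfa and the prolyl hydroxylase Egln3 itself. Nasopharyngeal carcinoma is a squamous tumour of the upper throat that often carries Epstein-Barr virus, and raised glycolysis is a known trait of such tumours.

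The study sequenced polyadenylated RNA from 16 libraries of C57BL/6 mouse organoids, which are 3-dimensional cultures, to compare tumours with and without the viral membrane protein LMP1. LMP1 (2 libraries) and Lung-LMP1 (3 libraries) are tumour organoids of genotype TMPL, which combines Myc and LMP1 with loss of Trp53 and a guide against Cdkn2a. Lung-Ctr (2 libraries) and Ctr (3 libraries) are tumour organoids of genotype TMP, which has the same 3 alterations without LMP1. Normal_nasopha and Normal_lung (3 libraries each) are organoids of normal nasopharynx and lung. The tumours grew in recipient mice after transplantation into the nasopharynx. In the sample descriptions all TMP libraries are primary and all TMPL libraries metastases, whereas the design text names both kinds for both genotypes. No site of growth is therefore read from the Lung prefix. If the descriptions hold, genotype and kind of tumour cannot be told apart in any comparison of TMPL with TMP. The sources do not give the promoters of the transgenes, the animals' ages or whether replicates came from separate animals or cultures, and p-values therefore cover the spread between these samples alone, which may be technical. A further 3 columns beside Ctr are headed as lung in a comparison named for the nasopharynx and are called the normal comparator.

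Total counts were between 12535166 and 21737184 per library, and 3 counts equal 0.138 to 0.239 CPM (the count as a share of the library total, in the usual scaling). Across 22573 genes, the comparator columns had a Pearson r of 0.981, 0.982 and 0.981 on log2(CPM + 1) with the same-numbered Normal_nasopha libraries and at most 0.890 with any Normal_lung library. Genes are not independent replicates, and the comparator may hold the same RNA as Normal_nasopha. Epithelial marker genes summed to 4818 to 5177 CPM in Lung-LMP1, 885 to 1333 CPM in LMP1, 4236 to 5440 CPM in Lung-Ctr and 2407 to 4316 CPM in Ctr, and lung epithelial markers to less than 1 CPM in each tumour library. Fibroblast and mesenchyme markers summed to 0.406 to 1.59 CPM in Lung-LMP1, 1058 to 1433 CPM in LMP1, 0.797 to 5.78 CPM in Lung-Ctr and 1.32 to 482 CPM in Ctr. In bulk RNA, fewer cells of a type and less RNA per cell cannot be told apart.

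The enolase gene Eno1 could not be tested in tumours. It had 0 counts in all 10 tumour libraries, whereas Normal_nasopha had 1226, 442 and 769 CPM and Normal_lung 238, 325 and 237 CPM in the other kind of table. A separate entry, Eno1b, was at 120 to 219 CPM in tumour libraries. In the other kind of table Eno1b had 795, 289 and 494 CPM in Normal_nasopha and 154, 198 and 148 CPM in Normal_lung. Whether Eno1b took up reads of Eno1 was not tested, so the level of Eno1 remains uncertain in both kinds of table. The comparator mean of the symbol tables was 5.20 times the Normal_nasopha mean for Gapdh, 3.10 times for the mitophagy receptor Bnip3, 2.29 times for Pgk1 and 1.64 times for Hif1a, and 27 of the 38 genes lay within 1.5 times. The tables therefore hold different counts for the same genes, and no level is set across them. Genes with many near-identical copies, such as Gapdh, Pgk1, Aldoa, Tpi1, Pkm and Ldha, remain uncertain, because reads could be split among copies.

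**Figure D1:**
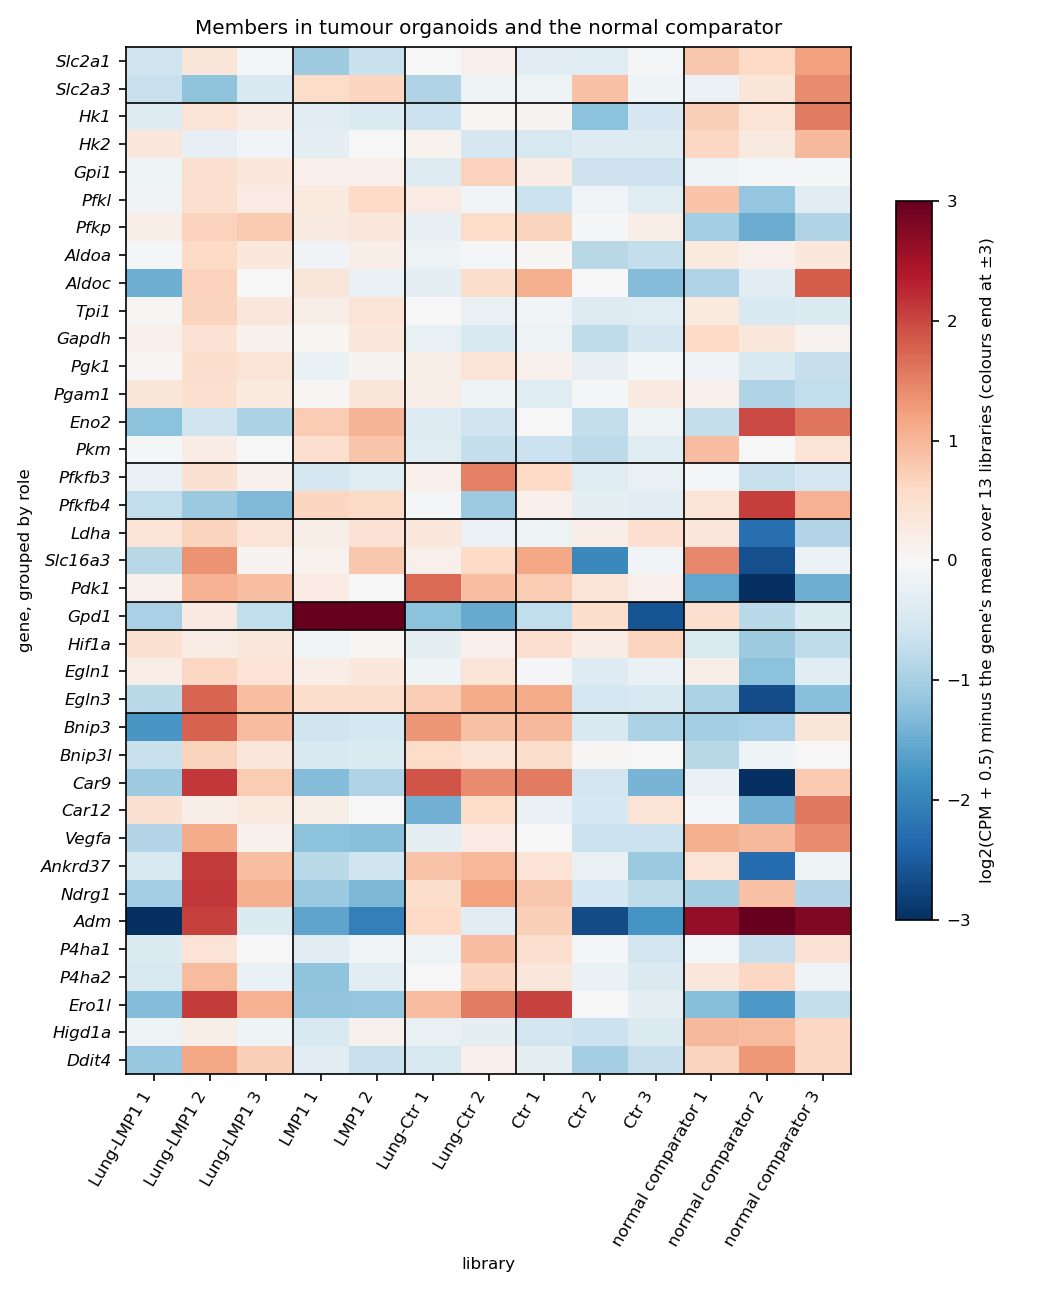
Each cell is log2(CPM + 0.5) of 1 gene (rows, grouped by role) in 1 library (columns) minus the gene's mean over the 13 libraries. Gpd1 stands out in both LMP1 libraries at 56.7 and 68.1 CPM, and Pdk1 is lower in all 3 comparator libraries than in any tumour library.

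LMP1 organoids held more transcript of 3 members than Ctr organoids. These groups carry no Lung prefix and differ in genotype and, by the sample descriptions, in being metastasis or primary. Pkm, the pyruvate kinase that makes ATP in the last step of glycolysis, was 2.37-fold higher. Pfkl, the liver-type subunit of phosphofructokinase, was 1.72-fold higher. Gpd1, which makes glycerol 3-phosphate from a glycolytic intermediate and reoxidises cytosolic NADH, was 23.3-fold higher. No hypoxia-responsive gene passed edgeR's test, whereas the authors' deposited values called Vegfa, Bnip3l and Ndrg1 lower in LMP1.

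Pkm (chromosome 9, 59656368 to 59679375 on GRCm38) was counted at 4064 and 5118 CPM in LMP1 libraries, against 1826, 1644 and 2236 CPM in Ctr libraries. Both LMP1 libraries lay above all Ctr libraries, and the log2 fold change was 1.25 ± 0.19 (SE, edgeR adjusted p = 0.00694). Gpd1 (chromosome 15, 99717515 to 99725005) had 56.7 and 68.1 CPM in LMP1 and 2.06, 5.69 and 0.209 CPM in Ctr, the last of which is 3 counts. Its log2 fold change was 4.54 ± 0.94 (SE, edgeR adjusted p = 0.0163), and the Ctr libraries differed among themselves more than the LMP1 libraries did. Without Ctr replicate 2 it was 54.3-fold higher. Pfkl (chromosome 10, 77986947 to 78010083) had 190 and 238 CPM in LMP1 and 99.0, 148 and 122 CPM in Ctr. The groups did not overlap, with a log2 fold change of 0.78 ± 0.22 (SE, edgeR adjusted p = 0.0460). For Pkm and Pfkl alike, the share of all genes without overlap was not counted. Pfkl passed under 3 of 11 alternatives, which change the tool, scaling, filter or fit or leave out 1 library, and with the length and GC correction its log2 fold change was 0.45 (edgeR adjusted p = 0.292).

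Of the 37 members tested, 3 rose and 0 fell, which is 8.11% against 16.4% of all 13460 genes called with 7.36% called higher and 9.06% lower. The members' share of higher calls was thus near the background. Their median log2 fold change was 0.07, beside -0.01 over all genes. The glycolytic enzymes Gapdh and Tpi1 had 2532 and 3067 CPM and 511 and 595 CPM in LMP1, against 2186, 1437 and 1721 CPM and 422, 343 and 351 CPM in Ctr, and their adjusted p of 0.0605 and 0.0816 in edgeR's test did not pass. The neuronal enolase Eno2 was at 6.09 and 7.38 CPM in LMP1 and 3.38, 1.87 and 3.06 CPM in Ctr, also without passing (edgeR adjusted p = 0.0764). The glucose transporter Slc2a1, at 106 and 140 CPM in LMP1 and 178, 173 and 214 CPM in Ctr, did not pass either (edgeR adjusted p = 0.128). Among 60 further genes of the same pathways, of which 51 were tested, 2 rose and 4 fell in LMP1. Pfkfb2, another enzyme of fructose 2,6-bisphosphate, fell by 2.22 on the log2 scale, at 34.7 and 31.3 CPM in LMP1 and 164, 156 and 136 CPM in Ctr. Epas1, which encodes HIF-2 alpha, fell by 3.06 on the log2 scale, at 4.54 and 11.1 CPM in LMP1 and 57.0, 66.5 and 68.7 CPM in Ctr. Gpd2, the mitochondrial partner of Gpd1 in the glycerol phosphate shuttle, fell by 1.32 on the log2 scale, and Mpc1, a subunit of the mitochondrial pyruvate carrier, by 1.02. Mif, a secreted cytokine, rose by 2.04 and the prolyl hydroxylase Egln2 by 0.87 on the log2 scale. Of these 6, Pfkfb2 passed under all 11 alternatives and Mpc1 under 3, and Egln2 was at 0.23 with the length and GC correction. Epas1, Gpd2 and Mif did not pass without LMP1 replicate 1 or without LMP1 replicate 2, the last of which put Epas1 at -3.84.

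The mesenchymal markers given above were high in both LMP1 libraries and in Ctr replicate 2 (482 CPM), which was also the Ctr library with the most Gpd1. Most of these sums came from Vim, at 1350 and 1017 CPM in LMP1 and 373 CPM in Ctr replicate 2. The collagen Col3a1 was at 60.8 and 24.8 CPM in LMP1 and 95.2 CPM in Ctr replicate 2, and at most 0.139 CPM in the other tumour libraries. In LMP1, 6 of the 7 mesenchymal markers averaged at least 1 CPM. Epithelial markers were lower in LMP1 (885 to 1333 CPM) than in Ctr (2407 to 4316 CPM), and the part of either list in these differences was not tested. Without LMP1 replicate 1 or without LMP1 replicate 2, 0 members passed, and 25 and 126 genes passed in all, whereas DESeq2 called 6 members, all higher, and 26.7% of all genes.

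**Figure D2:**
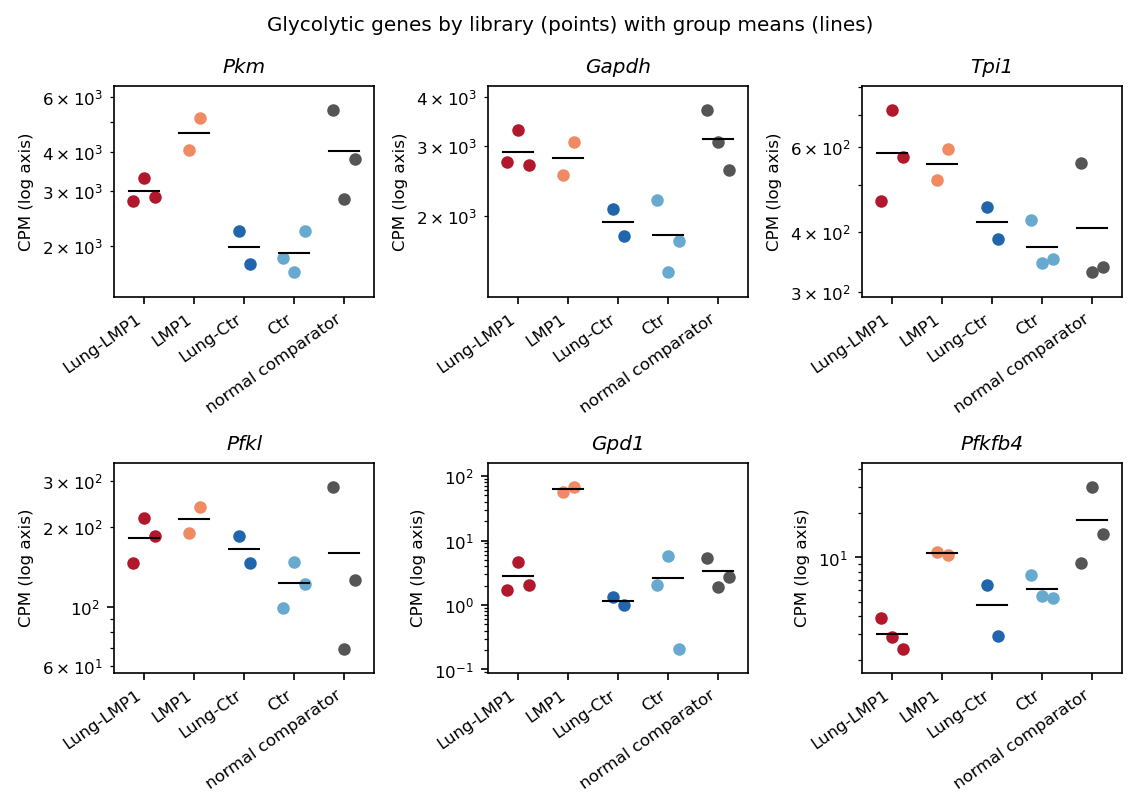
CPM per library on a log axis for 6 glycolysis-linked genes, with points for libraries and lines for group means. Pkm lies at 4064 and 5118 CPM in LMP1 and at most 2236 CPM in Ctr and 2233 CPM in Lung-Ctr, and both LMP1 libraries stand above all others for Gpd1 at 56.7 and 68.1 CPM.

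When all 5 TMPL libraries were set against all 5 TMP libraries, as the mean of the difference with and without the Lung prefix, 4 members were higher and 0 lower. These were Pkm, the glyceraldehyde phosphate dehydrogenase Gapdh, the triose phosphate isomerase Tpi1 and Gpd1. This comparison shares its libraries with the one above. Pkm had 2792, 3307 and 2876 CPM in Lung-LMP1, 4064 and 5118 CPM in LMP1, 2233 and 1743 CPM in Lung-Ctr and 1826, 1644 and 2236 CPM in Ctr. Every TMPL library thus exceeded every TMP library, and Pkm was 1.93-fold higher (log2 0.94 ± 0.14 SE, edgeR adjusted p = 0.00505). Gapdh (chromosome 6, 125161715 to 125166467) had 2727, 3295 and 2682 CPM in Lung-LMP1, 2532 and 3067 CPM in LMP1, 2081 and 1776 CPM in Lung-Ctr and 2186, 1437 and 1721 CPM in Ctr. Its TMPL and TMP libraries did not overlap, and it was 1.55-fold higher (log2 0.64 ± 0.14 SE, edgeR adjusted p = 0.0192). Tpi1 (chromosome 6, 124810586 to 124814296) had 463, 715 and 571 CPM in Lung-LMP1, 511 and 595 CPM in LMP1, 451 and 386 CPM in Lung-Ctr and 422, 343 and 351 CPM in Ctr. It was 1.45-fold higher (log2 0.54 ± 0.14 SE, edgeR adjusted p = 0.0291), with the lowest TMPL library just above the highest TMP library. How many of all genes separate the TMPL and TMP libraries in this way was not counted. Gpd1 was 7.65-fold higher (edgeR adjusted p = 0.0227), but its values in Lung-LMP1, 1.69, 4.65 and 2.07 CPM, overlapped those of Ctr.

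Members called made up 10.8% of 37, beside 18.1% of all genes called, with 8.48% called higher and 9.61% lower, again near the background for higher calls. Their median log2 fold change was 0.15, beside -0.05 over all genes. Of the 51 further pathway genes, 2 rose and 3 fell, among them Mif (1.62 on the log2 scale), which was at 304 to 329 CPM in Lung-LMP1, 610 and 642 CPM in LMP1, 117 and 164 CPM in Lung-Ctr and 97.3 to 241 CPM in Ctr. Pkm passed under all 15 alternatives, Gapdh and Gpd1 under 11 each and Tpi1 under 7. The count of members was 1 without LMP1 replicate 1, 1 without LMP1 replicate 2 and 2 without Lung-Ctr replicate 2.

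Between Lung-LMP1 and Lung-Ctr, the same contrast among libraries with the prefix, 0 of 37 members and 0% of 13460 genes passed edgeR's test. DESeq2 called 0 members and 869 genes (6.91%). At an unadjusted p under 0.05 there were 4 members, beside 17.1% of all genes. Of these, Pkm had a log2 fold change of 0.64 ± 0.20, Gapdh 0.64 ± 0.20, Tpi1 0.53 ± 0.20 and Hif1a, the HIF-1 alpha subunit, 0.44 ± 0.19 (SE). The direct test of whether the genotype difference depends on the prefix called 0 of 37 members, beside 0.892% of all genes, with 4 members at an unadjusted p under 0.05 (15.6% of all genes). Hif1a, at 402, 342 and 372 CPM in Lung-LMP1, 279 and 307 CPM in LMP1, 243 and 328 CPM in Lung-Ctr and 414, 343 and 456 CPM in Ctr, had the smallest p among members, with an interaction of 0.93 ± 0.26 (SE, edgeR adjusted p = 0.143). It was the only member that DESeq2 called there, beside 6.9% of all genes.

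Lung-LMP1 organoids, set against LMP1 organoids of the same genotype, held less Gpd1, Eno2 and Pfkfb4. Gpd1 was 20.2-fold lower, at 1.69, 4.65 and 2.07 CPM in Lung-LMP1 and 56.7 and 68.1 CPM in LMP1 (edgeR adjusted p = 0.0233). Eno2 (chromosome 6, 124760053 to 124769673) was at 1.15, 2.08 and 1.52 CPM in Lung-LMP1 and 6.09 and 7.38 CPM in LMP1, a fall of 3.87-fold (edgeR adjusted p = 0.0264). Pfkfb4 (chromosome 9, 108991778 to 109032228), a kinase and phosphatase of fructose 2,6-bisphosphate, had 3.86, 2.88 and 2.39 CPM in Lung-LMP1 and 11.0 and 10.4 CPM in LMP1, a fall of 3.18-fold (edgeR adjusted p = 0.0391). None of the 3 overlapped between the groups, and the share of all genes without overlap was not counted. Gpd1 and Eno2 each passed under 6 of 11 alternatives and Pfkfb4 under 3. Per kilobase of its longest annotated transcript, Pfkfb4 made up 10.5% ± 4.20 of the summed Pfkfb3 and Pfkfb4 level in Lung-LMP1 (SD, n = 3) and 37.5% ± 2.80 in LMP1 (n = 2).

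Of 37 members, 0 rose and 3 fell, 8.11% beside 10.1% of all 13460 genes called, with 6.17% called higher and 3.95% lower. The median log2 fold change was 0.39, beside 0.01 over all genes, so most members lay above 0 while only members below 0 passed. Several hypoxia-responsive genes, and the glucose transporter Slc2a1, had high but scattered values in Lung-LMP1. Ndrg1, a stress-induced growth regulator, had 72.0, 633 and 307 CPM in Lung-LMP1 and 66.9 and 57.3 CPM in LMP1 (edgeR adjusted p = 0.0875). Vegfa had 113, 446 and 226 CPM in Lung-LMP1 and 88.4 and 87.0 CPM in LMP1 (edgeR adjusted p = 0.0660). Slc2a1 had 148, 289 and 216 CPM in Lung-LMP1 and 106 and 140 CPM in LMP1 (edgeR adjusted p = 0.0562). The groups did not overlap for any of these genes, yet none passed, and the share of all genes without overlap was not counted. DESeq2 called 8 members, of which Slc2a1, Vegfa, Ndrg1, Ankrd37 and Car9 were higher, and 19% of all genes. Of 51 further pathway genes, 3 rose and 6 fell. Epas1 rose by 3.78 on the log2 scale, at 47.5, 170 and 77.8 CPM in Lung-LMP1 and 4.54 and 11.1 CPM in LMP1. Pfkfb2 rose by 2.01 and Gpd2 by 1.48, while Pdk4, a pyruvate dehydrogenase kinase of fasting, fell by 5.25 and the muscle enolase Eno3 by 2.26 on the log2 scale. Epas1 was at 3.13 without Lung-LMP1 replicate 2 and 4.57 without LMP1 replicate 2.

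Mesenchymal markers were at most 1.59 CPM in Lung-LMP1 and at least 1058 CPM in LMP1, where most of the sum came from Vim. Col3a1 had 60.8 and 24.8 CPM in LMP1 and 0 counts in each Lung-LMP1 library. Epithelial markers were at 4818 to 5177 CPM in Lung-LMP1 and 885 to 1333 CPM in LMP1, and the part of either list in these differences was not tested. Leaving out Lung-LMP1 replicate 1 gave 5 members, all higher (Slc2a1, Vegfa, Ndrg1, Bnip3l and Ddit4), whereas 0 passed without Lung-LMP1 replicate 3, without LMP1 replicate 1 or without LMP1 replicate 2. Over all genes these left 949, 483, 33 and 154 calls in the same order, and 674 without Lung-LMP1 replicate 2, against 1361 with every library.

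Lung-Ctr and Ctr, the same contrast in TMP organoids, differed in 0 of 37 members and 0% of all genes by edgeR's test, and DESeq2 called 0 members and 40 genes (0.305%). At an unadjusted p under 0.05 there were 3 members, beside 5.33% of all genes. Pdk1, which shuts pyruvate out of the mitochondrial citric acid cycle, had 493 and 283 CPM in Lung-Ctr and 258, 200 and 169 CPM in Ctr (edgeR adjusted p = 0.915). The other two were Hif1a, with a log2 fold change of -0.45 ± 0.19, and Pfkfb3, an inducible kinase of fructose 2,6-bisphosphate, with 0.99 ± 0.41 (SE).

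The hypoxia-responsive genes varied widely among libraries of the same group. Ero1l, an oxidase of the endoplasmic reticulum (chromosome 14, 45283087 to 45318771), had 233, 2453 and 1179 CPM in Lung-LMP1, 253 and 258 CPM in LMP1, 1086 and 1659 CPM in Lung-Ctr and 2355, 585 and 476 CPM in Ctr. Its LMP1 libraries were low and close together, and its Lung-LMP1 libraries spanned the range of all 10 tumour libraries. Car9, a carbonic anhydrase of the cell surface, had 12.8, 121 and 47.1 CPM in Lung-LMP1 libraries, 10.9 and 14.7 CPM in LMP1 libraries, 103 and 74.3 CPM in Lung-Ctr and 82.0, 18.9 and 10.2 CPM in Ctr. Bnip3 had 19.1, 223 and 124 CPM in Lung-LMP1, 42.8 and 45.2 CPM in LMP1, 163 and 121 CPM in Lung-Ctr and 129, 47.7 and 33.7 CPM in Ctr. In all 3 genes Lung-LMP1 replicate 2 and Ctr replicate 1 were the highest of their groups. Adm, which encodes the vasodilator adrenomedullin, ranged in Lung-LMP1 from 0.0677 CPM, which is 1 count, to 24.2 CPM.

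Over the 13 hypoxia-responsive genes, the highest library exceeded the lowest by a median of 4.94 times in Lung-LMP1, beside 1.40 times over 11842 genes. The glycolytic enzymes spread less, by a median of 1.51 times. In Ctr the 13 genes spread by 2.08 times, beside 1.53 times over 12275 genes. In LMP1 they spread by 1.18 times (all genes 1.11) and in Lung-Ctr by 1.53 times (all genes 1.32), each with 2 libraries. Lung-LMP1 replicate 2 had the highest value of its group for 12 of the 13, the exception being the carbonic anhydrase Car12, and for 38.5% of all genes. It was also highest for 11 of 13 glycolytic enzymes. Ctr replicate 1 was highest for 11 of the 13, all but Car12 and the mitochondrial protein Higd1a, and for 39.0% of all genes. These are descriptions of single libraries, and nothing in the labels sets those libraries apart.

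**Figure D3:**
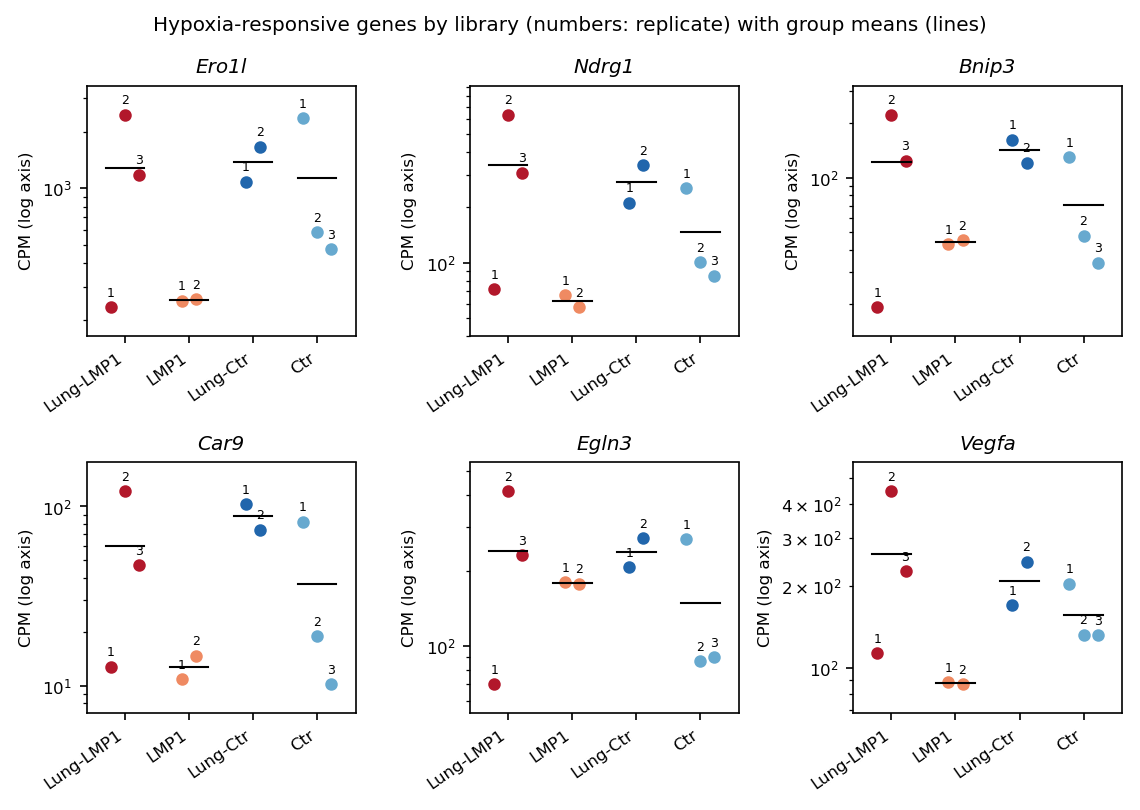
CPM per library on a log axis for 6 hypoxia-linked genes in the 4 tumour groups, with replicate numbers beside the points and lines for group means. Lung-LMP1 replicate 2 is the highest library of its group in every panel and Ctr replicate 1 of its group, for example 2453 CPM and 2355 CPM of Ero1l.

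Promoter windows of 4 members are shown because Bnip3 and Egln3 were both highest in replicate 2 of Lung-LMP1 and replicate 1 of Ctr, and because Pfkp and Pdk1 were higher in every tumour group than in the normal comparator. They are the 250 bases before the RefSeq transcript start on GRCm38.p6, read 5′ to 3′ on the strand of the gene. Capitals mark ACGTG or GCGTG on either strand, so that CACGT and CACGC are the same motifs on the other strand, and CACGTG, the E-box read by Myc and its partners, contains ACGTG on both strands.
Bnip3, chr7:138909507-138909756, minus strand: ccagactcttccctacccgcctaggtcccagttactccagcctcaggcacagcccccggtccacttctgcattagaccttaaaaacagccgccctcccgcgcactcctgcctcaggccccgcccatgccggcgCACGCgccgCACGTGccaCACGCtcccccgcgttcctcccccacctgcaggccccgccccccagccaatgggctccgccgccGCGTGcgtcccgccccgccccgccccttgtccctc
Egln3, chr12:54203875-54204124, minus strand: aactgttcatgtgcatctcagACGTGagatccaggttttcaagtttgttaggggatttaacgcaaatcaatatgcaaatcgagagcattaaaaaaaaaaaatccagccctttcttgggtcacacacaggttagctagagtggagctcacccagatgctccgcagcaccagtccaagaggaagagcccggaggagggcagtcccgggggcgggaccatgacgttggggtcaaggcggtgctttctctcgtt
Pfkp, chr13:6648772-6649021, minus strand: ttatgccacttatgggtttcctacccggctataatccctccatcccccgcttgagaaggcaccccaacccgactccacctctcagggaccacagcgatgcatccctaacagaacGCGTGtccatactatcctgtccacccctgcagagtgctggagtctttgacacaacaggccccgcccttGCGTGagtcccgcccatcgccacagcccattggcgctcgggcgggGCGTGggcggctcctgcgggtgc
Pdk1, chr2:71872974-71873223, plus strand: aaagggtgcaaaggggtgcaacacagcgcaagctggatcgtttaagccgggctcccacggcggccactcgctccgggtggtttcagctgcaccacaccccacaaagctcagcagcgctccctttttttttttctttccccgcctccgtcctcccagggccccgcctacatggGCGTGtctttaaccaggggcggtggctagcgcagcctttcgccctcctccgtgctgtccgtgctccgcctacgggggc
Bnip3 holds both motifs and the E-box within its window, Egln3 a single ACGTG, Pfkp GCGTG only and Pdk1 a single GCGTG. A further Pdk1 window of RefSeq (chr2:71874654-71874903) holds neither motif. RefSeq windows were matched for 34 of the 38 members, 45 windows in all, some of which overlap. ACGTG or GCGTG stood in 36 of the 45, beside 38.6% of all 32817 windows of the same length. ACGTG alone stood in 22 (16.6% of all windows), GCGTG in 25 (28.1%) and CACGTG in 4 (6.02%). A match describes letters and is not a measured binding site, and base composition of these windows was not matched. The members were chosen for roles that include known HIF targets, so these shares are not a test of enrichment. Windows of the same gene were counted separately.

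Tumour organoids of all 4 groups were set against the 3 normal comparator libraries, which all these comparisons share, so their calls are not independent of each other. Pdk1, the phosphofructokinase subunit Pfkp and Hif1a were higher, and the glucose transporter Slc2a1 and Higd1a lower, in each of the 4. Pdk1 (chromosome 2, 71873224 to 71903858) had 168, 313 and 285 CPM in Lung-LMP1, 181 and 154 CPM in LMP1, 493 and 283 CPM in Lung-Ctr, 258, 200 and 169 CPM in Ctr and 51.3, 16.4 and 55.2 CPM in the comparator. No tumour library overlapped the comparator, and the log2 fold changes were 2.67 ± 0.43, 1.98 ± 0.45, 3.21 ± 0.46 and 2.26 ± 0.43 (SE) for Lung-LMP1, LMP1, Lung-Ctr and Ctr, with edgeR adjusted p of 0.00242, 0.0110, 0.00124 and 0.00292. The share of all genes without such overlap was not counted.

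Pfkp (chromosome 13, 6579768 to 6648777) had 194, 273 and 293 CPM in Lung-LMP1, 205 and 212 CPM in LMP1, 142 and 246 CPM in Lung-Ctr, 268, 164 and 194 CPM in Ctr and 82.5, 60.1 and 90.6 CPM in the comparator. The log2 fold changes in the same order of groups were 1.74, 1.37, 1.29 and 1.34. Per kilobase, Pfkp made up 37.4% ± 2.84 of the Pfkl and Pfkp sum in Lung-LMP1, 29.7% ± 2.78 in LMP1, 33.4% ± 12.1 in Lung-Ctr, 42.2% ± 10.9 in Ctr and 20.6% ± 8.43 in the comparator (SD). Hif1a was at 243 to 456 CPM in tumour libraries and 216, 141 and 173 CPM in the comparator, with log2 fold changes of 1.12, 0.68, 0.66 and 1.12. With the length and GC correction its log2 fold changes of 0.40 in LMP1, 0.043 in Lung-Ctr and 0.45 in Ctr did not pass, and leaving out either library of LMP1 or of Lung-Ctr also ended its call there. Slc2a1 (chromosome 4, 119108711 to 119137983), the main glucose importer of many epithelia, was at 106 to 289 CPM in tumour libraries and 391, 340 and 527 CPM in the comparator. Its log2 fold changes were -0.91, -1.82, -0.86 and -1.24. No tumour library reached the lowest comparator library, a separation whose share over all genes was not counted. In Lung-Ctr its call passed again under 4 of 11 alternatives and that of Hif1a under 3, whereas Pdk1 passed under 12 of 12 in Lung-LMP1, 8 of 11 in LMP1, 10 of 11 in Lung-Ctr and 12 of 12 in Ctr. Higd1a, at 18.4 to 33.1 CPM in tumours and 57.3, 56.1 and 44.6 CPM in the comparator, had log2 fold changes of -0.84, -1.05, -1.15 and -1.48. Its name derives from hypoxia, and it supports mitochondrial respiration.

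**Figure D4:**
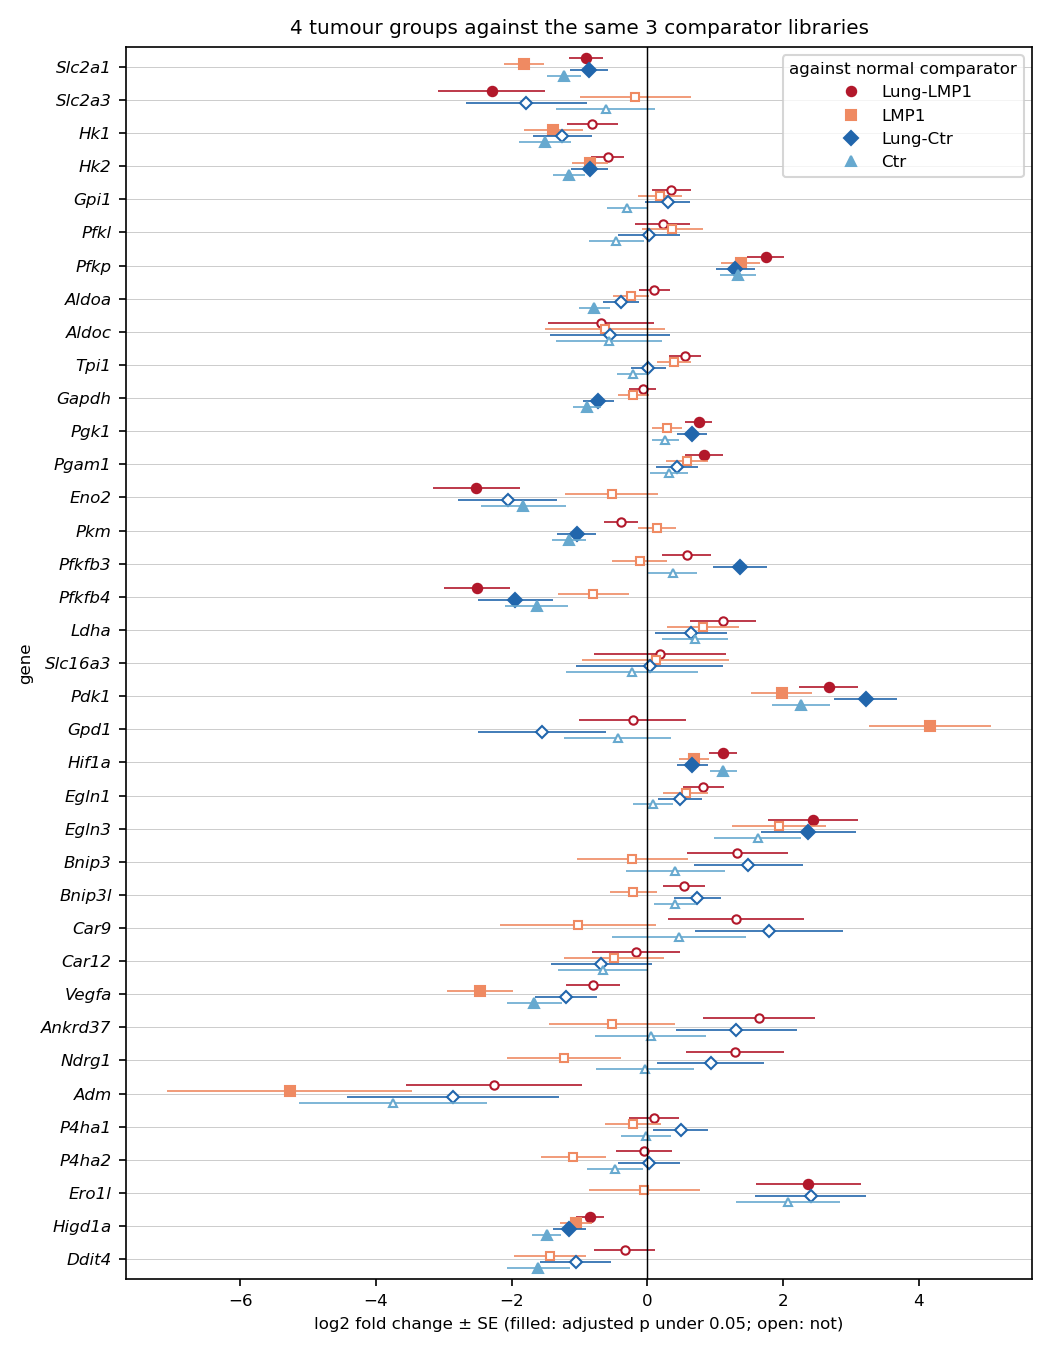
Log2 fold change ± SE of 37 members (rows) in 4 tumour groups against the same 3 comparator libraries, filled where the edgeR adjusted p was under 0.05. Pdk1, Pfkp and Hif1a are filled to the right of 0 and Slc2a1 and Higd1a to the left in all 4 groups, with Pdk1 between 1.98 and 3.21.

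The remaining calls differed between groups, and those differences were not tested here against the comparator. In Lung-LMP1 7 members were higher and 5 lower, 32.4% beside 32% of all 14096 genes, of which 14.6% were called higher and 17.4% lower. Egln3, at 70.2, 415 and 230 CPM in Lung-LMP1 and 64.1, 19.1 and 51.6 CPM in the comparator, was 5.42-fold higher (edgeR adjusted p = 0.0190), and 3.43-fold without Lung-LMP1 replicate 2 (edgeR adjusted p = 0.0651). Ero1l was 5.17-fold higher but overlapped the comparator, which had 235, 175 and 352 CPM. Without Lung-LMP1 replicate 2 it was 2.84-fold higher (edgeR adjusted p = 0.149), and it passed under 3 of 12 alternatives. Pgk1, which makes the first ATP of glycolysis, and the phosphoglycerate mutase Pgam1 were higher by 1.69- and 1.79-fold, Pgam1 with a pass under 5 of 12 alternatives. Eno2, Pfkfb4 and the glucose transporter Slc2a3 were lower, by 5.74-, 5.71- and 4.91-fold, with Slc2a3 below 1 CPM in all 3 Lung-LMP1 libraries. Without comparator replicate 3, Slc2a3 was 2.89-fold lower (edgeR adjusted p = 0.184). In LMP1 4 members were higher and 6 lower, 27% beside 28.2% of all genes, of which 13.7% were called higher and 14.5% lower. Gpd1 was 17.9-fold higher, at 56.7 and 68.1 CPM in LMP1 and 5.43, 1.93 and 2.71 CPM in the comparator (edgeR adjusted p = 0.00859). Vegfa, at 88.4 and 87.0 CPM in LMP1 and 434, 409 and 557 CPM in the comparator, was 5.52-fold lower, and Adm, at 1.49 and 0.947 CPM in LMP1 and 36.3, 61.3 and 40.6 CPM in the comparator, was 38.6-fold lower. The hexokinases Hk1 and Hk2, which trap glucose as its phosphate, were 2.61- and 1.80-fold lower. Adm passed under 3 of 11 alternatives and each hexokinase under 6.

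In Lung-Ctr 6 members were higher and 6 lower, 32.4% beside 27.4% of all genes, of which 13.2% were called higher and 14.2% lower. Egln3 (5.17-fold), Pfkfb3 (2.56-fold) and Pgk1 (1.57-fold) were higher. Pfkfb3 had 37.5 and 97.0 CPM in Lung-Ctr and 32.5, 20.8 and 23.6 CPM in the comparator, and was 1.44-fold higher without Lung-Ctr replicate 2 (edgeR adjusted p = 0.377). Egln3 and Pgk1 each passed under 4 of 11 alternatives. Lower were Hk2, Gapdh, Pkm and Pfkfb4, by 1.80-, 1.65-, 2.06- and 3.86-fold, of which Gapdh passed under 3 of 11 alternatives. Pfkfb4 was 6.25-fold lower without Lung-Ctr replicate 1 and 2.57-fold lower without comparator replicate 2 (edgeR adjusted p = 0.0643). In Ctr 3 members were higher and 11 lower, 37.8% beside 35.1% of all genes, and the lower ones made up 29.7% of members beside 19% of all genes, the higher ones 8.11% beside 16.1%. Besides Slc2a1 and Higd1a these were Hk1, Hk2, the aldolase Aldoa, Gapdh, Eno2, Pkm, Pfkfb4, Vegfa and the stress-induced mTORC1 inhibitor Ddit4, by 1.72-fold (Aldoa) to 3.56-fold (Eno2). Eno2 passed under 3 of 12 alternatives, Aldoa under 6, and Pfkfb4 and Ddit4 under 8 each, Pfkfb4 at 2.05-fold lower without comparator replicate 2 (edgeR adjusted p = 0.0888). Pkm was at 1826, 1644 and 2236 CPM in Ctr and 5435, 2824 and 3790 CPM in the comparator (edgeR adjusted p = 0.00547).

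Of 52 further pathway genes tested, 10 rose and 10 fell in Lung-LMP1, which is 38.5% beside 32% of all genes called. In LMP1 3 rose and 8 fell (21.2% beside 28.2%). In Lung-Ctr 9 rose and 7 fell (30.8% beside 27.4%), and in Ctr 8 rose and 11 fell (36.5% beside 35.1%). G6pdx, the first enzyme of the pentose phosphate pathway, was at 105 to 226 CPM in tumour libraries and 597, 536 and 808 CPM in the comparator, with log2 fold changes of -1.58, -2.04, -2.13 and -2.36 in Lung-LMP1, LMP1, Lung-Ctr and Ctr. Taldo1 and Pgd, later enzymes of the same pathway, were called lower in each group too. Hmox1, which degrades haem, was at 6.26 to 11.2 CPM in tumours and 572, 4486 and 932 CPM in the comparator, and was called lower in each group with and without comparator replicate 2, its highest library. Slc16a1, which carries lactate and pyruvate across the membrane, was called higher in each group, at 249 to 675 CPM in tumours and 84.5, 55.9 and 47.3 CPM in the comparator.

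The comparator held leukocyte markers at 63.1 to 298 CPM, against 7.73 to 41.3 CPM in tumours, and lung epithelial markers at 41.0 to 179 CPM, and their part in these differences was not tested. With only the groups compared in the fit, 6 members passed in Lung-LMP1, 6 in LMP1, 0 in Lung-Ctr (168 genes) and 11 in Ctr. Lung-LMP1 had 5 without its replicate 3 and 6 without comparator replicate 3. LMP1 had 2 without either of its replicates and 6 without comparator replicate 3, and Lung-Ctr had 6 without its replicate 1, 2 without its replicate 2, 7 without comparator replicate 2 and 6 without comparator replicate 3.

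Normal_nasopha organoids, set against Normal_lung organoids, differed in the levels of both glucose transporters. Slc2a1 was 3.37-fold higher and Slc2a3, a transporter of high affinity, 39.5-fold lower. Slc2a1 had 297, 258 and 396 CPM in Normal_nasopha and 75.8, 102 and 76.9 CPM in Normal_lung (edgeR adjusted p = 0.00187). Slc2a3 (chromosome 6, 122727809 to 122801640) had 0.677, 1.15 and 3.11 CPM in Normal_nasopha and 67.4, 74.2 and 34.7 CPM in Normal_lung (edgeR adjusted p = 0.00150). Per kilobase, Slc2a3 made up 0.253% ± 0.145 of the sum of both in Normal_nasopha and 26.1% ± 6.44 in Normal_lung (SD, n = 3 each).

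Both hexokinases were higher in Normal_nasopha, Hk2 by 3.85-fold and Hk1 by 2.39-fold. Hk2 had 200, 158 and 255 CPM in Normal_nasopha and 47.5, 57.6 and 38.5 CPM in Normal_lung (edgeR adjusted p = 0.00169). Eno1, uncertain as stated above, was 2.74-fold, Pfkp 2.03-fold and Gpi1, the phosphoglucose isomerase, 1.52-fold higher. Pfkfb4, at 9.38, 28.7 and 13.3 CPM in Normal_nasopha and 117, 136 and 131 CPM in Normal_lung, was 8.22-fold lower (edgeR adjusted p = 0.00282). Gpd1, at 2.90, 1.06 and 1.41 CPM in Normal_nasopha and 26.4, 30.1 and 31.1 CPM in Normal_lung, was 18.1-fold lower (edgeR adjusted p = 0.000799). None of these genes overlapped between the tissues, and the share of all genes without overlap was not counted.

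Of the oxygen-linked genes, Car12 (chromosome 9, 66713686 to 66766845) was 52.9-fold higher, at 109, 40.4 and 327 CPM in Normal_nasopha and 4.92, 1.57 and 1.51 CPM in Normal_lung (edgeR adjusted p = 0.00521). Egln3 had 59.5, 16.5 and 46.0 CPM in Normal_nasopha and 8.14, 2.75 and 2.38 CPM in Normal_lung, 8.15-fold higher (edgeR adjusted p = 0.0145). Ndrg1 (6.32-fold), Adm (6.29-fold), Ero1l (2.49-fold) and Ddit4 (2.41-fold) were higher as well. P4ha2, a collagen prolyl hydroxylase, was 4.51-fold lower, at 22.5, 26.1 and 15.6 CPM in Normal_nasopha and 114, 69.2 and 76.8 CPM in Normal_lung (edgeR adjusted p = 0.00264). Vegfa was 2.12-fold lower, at 396, 376 and 498 CPM in Normal_nasopha and 1094, 551 and 761 CPM in Normal_lung. Hif1a, at 131, 87.1 and 105 CPM in Normal_nasopha and 74.8, 84.3 and 70.3 CPM in Normal_lung, did not pass.

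**Figure D5:**
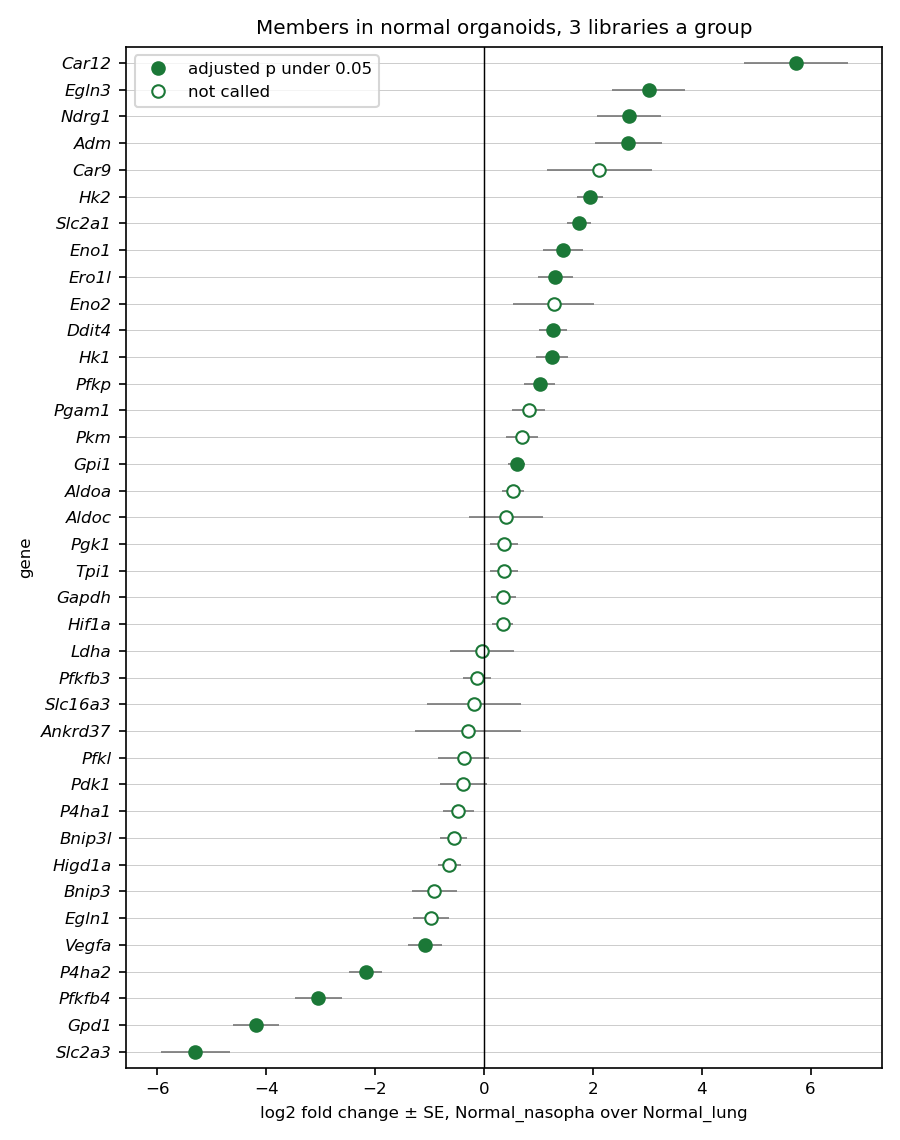
Log2 fold change ± SE of all 38 members in Normal_nasopha over Normal_lung (3 libraries each), ordered from highest to lowest, filled where the edgeR adjusted p was under 0.05. Car12 lies at 5.72 and Slc2a3 at -5.30, the ends of the range.

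In all, 12 members were higher and 5 lower, 44.7% of 38 beside 31.1% of all 15886 genes, with 31.6% called higher beside 15.4% of all genes and 13.2% called lower beside 15.6%. The median log2 fold change was 0.37, beside 0.13 over all genes. Of 53 further pathway genes tested, 13 rose and 17 fell. G6pdx was 3.63-fold and Pdk4 9.89-fold higher, and Pfkfb2, Gys1, a glycogen synthase, and Loxl2, a collagen crosslinking enzyme, were 4.23-, 2.74- and 15.6-fold lower. Leukocyte markers summed to 56.8 to 273 CPM in Normal_nasopha and 1667 to 2893 CPM in Normal_lung, and mesenchymal markers to 4.51 to 15.1 CPM and 94.0 to 552 CPM in the same order of tissues, and their part in these differences was not tested. The count was 11 without Normal_lung replicate 1, 11 without Normal_lung replicate 2 and 7 without Normal_lung replicate 3. Over all genes these left 3050, 3185 and 2657 calls, against 4935 with every library. Slc2a1, Slc2a3, Hk2, Pfkfb4, Gpd1, Car12 and P4ha2 passed under all 11 alternatives, and Gpi1 under 5, Eno1 and Vegfa under 6 and Pfkp under 7. Car12 was 24.4-fold higher without Normal_nasopha replicate 3 and 93.1-fold higher without Normal_lung replicate 1, and Slc2a3 was 72.5-fold lower without Normal_nasopha replicate 3. Pfkfb4 was 12.6-fold lower and Ndrg1 3.46-fold higher without Normal_nasopha replicate 2, Egln3 14.3-fold higher without Normal_lung replicate 1 and Adm 12.5-fold higher without Normal_lung replicate 2.

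In the authors' deposited table, LMP1 against Ctr had 5 members higher and 4 lower at an adjusted p under 0.05. Beside these stood 1645 genes higher and 2146 lower of 13695 with an adjusted p. The 4 lower members were Slc2a1, Vegfa, Bnip3l and Ndrg1, none of which passed edgeR's test here. Lung-LMP1 against LMP1 had 6 members higher and 4 lower, beside 2056 genes higher and 1677 lower of 14262. For Lung-LMP1 against Lung-Ctr 0 members were called, beside 287 genes higher and 149 lower of 12750. For Lung-Ctr against Ctr 0 were called too, beside 17 genes higher and 11 lower of 12597. For Ctr against the comparator the authors' deposited table had 5 members higher and 11 lower, beside 1889 genes higher and 2397 lower of 14869. For Normal_nasopha against Normal_lung it had 13 members higher and 7 lower, beside 2968 genes higher and 3251 lower of 20061.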

How the data were processed

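Per the submitters' processing notes, the authors used STAR, DESeq2 and DESeq with the mm10 build. The sources used here give no counting tool, annotation or versions. Per the file headers, the values the authors deposited are raw counts of reads for each gene, and these alone were tested. Log2 fold changes and their adjusted p-values, which the authors deposited too, are quoted as counts of calls, with some called members named. A further 32 deposited columns of per-sample values were not used. The members, the further pathway genes and the markers were chosen with earlier results of these data known. All members may be named, and further pathway genes were named as the called ones of smallest adjusted p in a comparison (at most 6).

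The test was that of edgeR 4.0.16 under R 4.3.3 (filterByExpr by group, TMM normalisation, robust dispersions, quasi-likelihood F-test, Benjamini-Hochberg adjustment over all genes tested, threshold 0.05). The 10 tumour libraries shared 1 fit, the comparisons with the comparator a fit of 13 libraries, and the normal tissues a fit of 6. CPM are by total count. Where groups are said not to overlap, this describes the libraries only, because the share over all genes was not counted. The SE is the log2 fold change divided by the square root of F. The tests were also run on simulated counts with the same fixed dispersion for every gene and changes placed in well-counted genes only. That run does not cover genes of wide spread or low counts. Total counts of 12535166 to 21737184 per library set the precision, and floors of 3 counts cover counting error only. Alternatives were DESeq2 1.42.0, size factors by RLE, no filter on low counts, the replicate number as a block, a length and GC correction (mgcv 1.9.3), only the groups compared, and each library left out. Positions and the lengths of the longest transcript are from GENCODE vM21 on GRCm38, the mm10 build, and promoter windows from RefSeq. Ero1l is matched to RefSeq by synonym.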

Additional observations from a re-analysis of the deposited data

Results flagged for a closer look

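Pfkfb2, which makes and degrades fructose 2,6-bisphosphate, had a genotype difference that passed the test of dependence on the Lung prefix, with an interaction of 1.98 ± 0.26 on the log2 scale (SE, edgeR adjusted p = 0.0239). It was at 113, 138 and 112 CPM in Lung-LMP1, 34.7 and 31.3 CPM in LMP1, 124 and 173 CPM in Lung-Ctr and 164, 156 and 136 CPM in Ctr. Both LMP1 libraries lay below every other tumour library, but the share of all genes for which this holds was not counted. It is a further pathway gene and not 1 of the 38, and 0 members had an interaction that passed. The interaction was between 1.73 and 2.24 under all 15 alternatives and passed under 9 of them. It did not pass with the replicate block or without any 1 library of Lung-LMP1 or LMP1, with an edgeR adjusted p of up to 0.192. Over all genes, 120 interactions passed with every library, against 9, 23 and 9 without Lung-LMP1 replicate 1, 2 or 3, 4 and 5 without LMP1 replicate 1 or 2, 53 and 274 without Lung-Ctr replicate 1 or 2, and 43, 331 and 66 without Ctr replicate 1, 2 or 3.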

How the results depend on the processing

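The 75 member calls kept their direction under every alternative run. They passed again in 75 of 75 results with DESeq2, 74 of 75 with RLE size factors, 62 of 75 without a filter on low counts, 59 of 75 with the length and GC correction, 49 of 75 with the replicate block, 26 of 54 with only the groups compared and 281 of 438 with 1 library left out. With DESeq2 the counts of members called became 6 for LMP1 against Ctr, 8 for Lung-LMP1 against LMP1 and 1 for the interaction. The replicate block gave 2 for TMPL against TMP, 0 for Lung-LMP1 against LMP1, 6 for LMP1 against the comparator and 4 for Lung-Ctr against the comparator. Same-numbered libraries had correlations of -0.348 to 0.174 between their deviations from the group mean. With groups this small, and no differently numbered pairs beside them, these cannot show whether the numbers pair the samples. Without the filter, Lung-Ctr against the comparator had 7. The length and GC correction gave 9 for Ctr and 7 for Lung-Ctr against the comparator. Only the groups compared gave 6, 6 and 0 for Lung-LMP1, LMP1 and Lung-Ctr against the comparator. The cause of these changes was not tested.

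With 1 library left out, the counts ranged from 0 to 4 for LMP1 against Ctr, 1 to 5 for TMPL against TMP, 0 to 5 for Lung-LMP1 against LMP1, 5 to 15 for Lung-LMP1, 2 to 12 for LMP1, 2 to 14 for Lung-Ctr and 10 to 16 for Ctr against the comparator, and 7 to 19 for Normal_nasopha against Normal_lung. They stayed at 0 for Lung-LMP1 against Lung-Ctr, the interaction and Lung-Ctr against Ctr. A group of 1 library was then assumed to vary like the others. Over all genes, DESeq2 called 3564 for LMP1 against Ctr (edgeR 2210), 3725 for TMPL against TMP (2434), 2537 for Lung-LMP1 against LMP1 (1361), 922 for the interaction (120), 869 for Lung-LMP1 against Lung-Ctr (0) and 40 for Lung-Ctr against Ctr (0). The replicate block gave 483, 1040, 360 and 2 for the first 4 of these and 2517 for LMP1 against the comparator (3980). The length and GC correction gave 1100 for LMP1 against Ctr, 1320 for TMPL against TMP and 2572 for Lung-Ctr against the comparator (3861). Only the groups compared gave 2682 for Lung-LMP1 against LMP1, and 2937 (4516), 2288, 168 and 2917 (4944) for Lung-LMP1, LMP1, Lung-Ctr and Ctr against the comparator. Groups of 2 libraries and low counts, such as Adm and Slc2a3 below 1 CPM, limit the precision.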
